A study of Drosophila melanogaster with 2 samples.

Results

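Aminoacyl-tRNA synthetases are the enzymes that load each transfer RNA with its amino acid. Their genes were taken as all protein-coding genes of the BDGP6 annotation whose symbol is 1 or 2 three-letter amino acid names followed by RS, with or without -m. The rule found 33 genes of 13981 protein-coding genes. The 18 without -m are called cytosolic and the 15 with -m mitochondrial, by symbol alone. The rule does not show whether a gene without -m also serves mitochondria, and any such gene is counted as cytosolic. The data were Hnf4 chromatin immunoprecipitation with sequencing (ChIP-seq) in Drosophila melanogaster, and the values described are called regions at the promoters of these 33 genes.

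The study has 1 group with 2 biological replicates, numbered so in the labels. Its animals were of the strain Hnf4-GFP, a stable transgenic line whose Hnf4 carries green fluorescent protein at the C terminus. Whole wandering larvae of the third instar, of both sexes and of unknown age, were pooled and their chromatin was sonicated, and the labels' description gives the precipitating antibody as anti-GFP while the antibody field gives Hnf4. There is no second condition and no untagged line among the samples. What drives the transgene, and whether the larvae keep untagged Hnf4, is not given in the sources used here. In whole larvae, strong binding in few cells and weak binding in many cannot be told apart.

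Each synthetase joins an amino acid to the matching transfer RNA at the cost of ATP, and the ribosome then reads the loaded transfer RNA against the codon. Mitochondria make their own small set of proteins, and the synthetases that serve them are encoded in the nucleus, made in the cytosol and imported. When amino acids run short, uncharged transfer RNA activates the kinase Gcn2, and the transcription factor ATF4, encoded in the fly by crc, is then translated more and acts on genes of amino acid supply, synthetase genes among them. Hnf4 is a nuclear receptor, and in the fly it is known for its part in lipid breakdown, mitochondrial function and the response to sugar.

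At 8 of the 33 synthetase genes a peak of the authors' optimal list had its summit within 1000 bp of a transcription start site (TSS). The optimal list is the authors' set of 5817 regions that passed their reproducibility threshold, and each region carries their own signal value for its enrichment. Of these, 4130 overlapped one of the 5817 strongest regions of each replicate. The DNA below lies under 4 of these summits, and is shown because these are the strongest peaks of each compartment with sequence printed here, 3 cytosolic and 1 mitochondrial. Each line is dm6 sequence from the Release 6 reference of RefSeq, 5′ to 3′ on the strand of the gene. The window ran 100 bp to either side of the summit and was shortened where it would have held more than 30 bases of an exon at an end. Capitals mark the single match to any of the motifs searched, a DNA replication-related element (DRE) at AlaRS.
IleRS (chr3L:22288427-22288627, plus strand): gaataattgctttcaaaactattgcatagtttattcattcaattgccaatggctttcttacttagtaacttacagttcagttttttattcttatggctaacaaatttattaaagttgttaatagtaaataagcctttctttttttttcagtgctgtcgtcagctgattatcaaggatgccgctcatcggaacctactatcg
GluProRS (chr3R:23958398-23958598, minus strand): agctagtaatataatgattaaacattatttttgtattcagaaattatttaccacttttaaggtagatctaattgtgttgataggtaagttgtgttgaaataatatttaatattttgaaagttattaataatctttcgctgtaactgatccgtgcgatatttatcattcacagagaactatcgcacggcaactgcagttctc
AlaRS (chr2L:8381735-8381850, minus strand): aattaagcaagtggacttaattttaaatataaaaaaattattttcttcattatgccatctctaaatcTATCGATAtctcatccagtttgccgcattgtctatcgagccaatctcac
ArgRS-m (chr3R:7886878-7887074, plus strand): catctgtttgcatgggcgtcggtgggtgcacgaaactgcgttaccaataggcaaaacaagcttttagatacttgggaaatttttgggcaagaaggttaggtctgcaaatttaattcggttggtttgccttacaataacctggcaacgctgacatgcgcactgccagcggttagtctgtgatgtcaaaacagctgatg

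The windows of IleRS, GluProRS and AlaRS were poor in G and C, at 31.8%, 28.9% and 33.3% over the full 201 bases, and that of ArgRS-m held 46.3%. Over the 3130 optimal summits at promoters, the median was 37.8%. The remaining windows held 36.8% at ArgRS, 35.8% at AspRS, 23.4% at GlyRS and 26.9% at CysRS-m. ArgRS-m was thus the single window of the 8 above the median.

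As a group, the synthetase genes carried optimal promoter summits about as often as other genes. The share was 24.2%, 8 of 33, against 22.9% of all protein-coding genes (3207 of 13981). The cytosolic genes stood at 6 of 18, or 33.3%, and the mitochondrial genes at 2 of 15, or 13.3%. The cytosolic count includes GlyRS, for which the naming rule found no -m counterpart. These numbers differ by 4 genes, neighbouring genes share peaks, and the difference between the compartments was not tested. The strongest optimal signal value per gene had a median of 149.8 over the 6 cytosolic genes and of 108.7 over the 2 mitochondrial genes, beside 143.9 over all 3207 genes with such a summit.

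In the lists without the reproducibility threshold, the cytosolic genes were close to the background and the mitochondrial genes below it. The relaxed list of both replicates pooled, which holds background as well as strong regions, put a summit at 8 of 18 cytosolic promoters, or 44.4%, and at 2 of 15 mitochondrial ones, or 13.3%, with 41.5% of all genes. In replicate 1 the shares were again 44.4% for the cytosolic genes, and 20.0%, 3 of 15, for the mitochondrial genes, against 44.7% of all genes. Replicate 2 also had summits at 8 cytosolic and 3 mitochondrial genes, against 45.0% of all genes. Optimal peaks that also overlapped one of the 5817 strongest regions of each replicate stood at 4 cytosolic genes, or 22.2%, and at 2 mitochondrial genes, or 13.3%, with 17.9% of all genes. Of the 10 synthetase genes with a pooled summit, 8 also had an optimal one, or 80.0%, whereas over all genes with a pooled summit this was 55.3%. Whether these shares differ from the background was not tested.

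**Figure D1:**
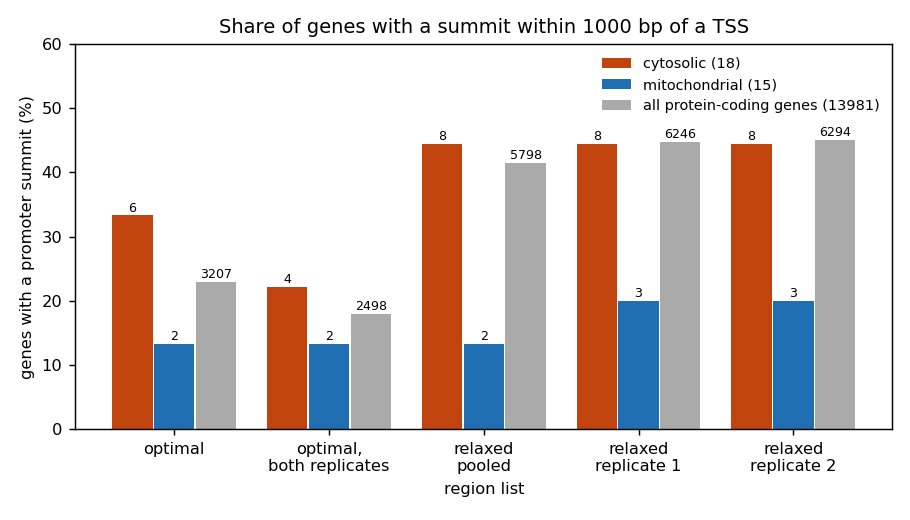
Share of genes with a summit within 1000 bp of a TSS (y axis, percent) in the optimal list, its peaks supported by both replicates and the 3 relaxed lists (x axis), for cytosolic, mitochondrial and all protein-coding genes, with the number of genes above each bar. The mitochondrial bars stay at 13.3% or 20.0% while the bar of all genes goes from 17.9% to 45.0%.

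IleRS (FBgn0027086), the isoleucyl-tRNA synthetase gene, had the strongest peak among the synthetase promoters. The peak lay at chromosome 3L from 22288372 to 22288661, and its summit was 138 bp ahead of the only annotated TSS. Its optimal signal value was 279.5, rank 648 of 5817, and the overlapping regions had signal values of 160.0 in replicate 1 and 113.3 in replicate 2. Those were rank 728 and rank 779 of their lists, so both replicates put this region near the same place. Only 11.1% of the optimal peaks were as strong. The summit also lay 332 bp from the TSS of Hem, which encodes a subunit of the actin-regulating WAVE complex and is transcribed the other way.

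GluProRS (FBgn0005674) encodes a single protein with both glutamyl- and prolyl-tRNA synthetase activity. Its peak, chromosome 3R from 23958346 to 23958704, had its summit 107 bp upstream of the gene and an optimal signal value of 242.5, rank 899. The signal values were 119.4 in replicate 1 and 124.2 in replicate 2, at rank 1301 and rank 646. Their summits lay 124 bp and 174 bp upstream. The peak counted as supported by both replicates, but not where each replicate had to cover 50% of it. The opposite gene AP-1sigma, for a subunit of a clathrin adaptor, starts 153 bp from the summit on the other side.

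AlaRS (FBgn0027094), the alanyl-tRNA synthetase gene, was the only one of the 8 genes whose summit lay past its nearest TSS. It was 8 bp into the first exon. The peak covered chromosome 2L from 8381558 to 8381953, with a signal value of 183.1 in the optimal list, 110.5 in replicate 1 and 73.21 in replicate 2. Its rank was 1431 in the optimal list, 1492 in replicate 1 and 1599 in replicate 2, much the same place in each. A stronger peak of signal value 340.3 had its summit 1084 bp upstream of the AlaRS TSS, within 1000 bp of the TSSs of CG13392 and Rcd4. CG13392 is read on the same strand just ahead of AlaRS, so the 2 peaks lie at the successive starts of neighbouring genes.

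ArgRS (FBgn0027093), for the arginyl enzyme of the cytosol, had a peak that rested mainly on replicate 2. Its optimal signal value was 116.5, rank 2820, at chromosome X from 15844095 to 15844490, with the summit 148 bp upstream. The overlapping region of replicate 1 had a signal value of 33.1 and rank 8856, while that of replicate 2 had 73.84 and rank 1582. The replicate 1 region was thus outside the 5817 strongest of that list, and this peak does not count as supported by both. CG8578 starts 183 bp from the summit in the other direction.

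GlyRS (FBgn0027088), the glycyl-tRNA synthetase gene, went the other way. Its peak on chromosome 3L, from 15094794 to 15095189, had an optimal signal value of 86.67 and rank 4187. The signal value was 68.57 at rank 3279 in replicate 1 and 26.11 at rank 6393 in replicate 2, outside the 5817 strongest of the latter. The summit lay 150 bp upstream of GlyRS, 268 bp from a TSS of Plp, which encodes a centrosome protein, and 273 bp from that of sstn.

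AspRS (FBgn0002069), for the aspartyl enzyme, had the lowest strongest peak of the 8 and the most peaks around it. The peak lay at chromosome 2R from 12880127 to 12880310, and its summit was 98 bp ahead of the nearest of 3 annotated TSSs and inside an exon of a longer AspRS transcript. Its signal value was 84.5 in the optimal list, 50.43 in replicate 1 and 40.51 in replicate 2. A second optimal peak of signal value 73.26 lay 450 bp upstream of that TSS and another of 134.8 lay 1392 bp upstream, and all 3 summits fell within the gene. The TSS nearest to the strongest promoter summit belonged to Nmda1, at 44 bp, which is transcribed toward the other side. The region therefore counts for both genes, and goes to Nmda1 alone if each summit is given to the closest TSS.

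The 2 mitochondrial genes with an optimal promoter peak, ArgRS-m and CysRS-m, had middling signal values. ArgRS-m (FBgn0037526) had a peak at chromosome 3R from 7886780 to 7887175, with the summit 67 bp upstream, an optimal signal value of 115.6 and rank 2849. The replicates gave signal values of 56.74 and 54.82, at rank 4305 in replicate 1 and rank 2456 in replicate 2. CysRS-m (FBgn0033900) had a peak at chromosome 2R from 14161140 to 14161535, with the summit 76 bp upstream, an optimal signal value of 101.7 and rank 3396. Here replicate 1 gave 68.76 at rank 3265 and replicate 2 gave 30.17 at rank 5327. Both peaks counted as supported by both replicates. ArgRS-m shares its peak with CG17816, whose TSS lies 245 bp from the summit, and CysRS-m with O-fut1, which encodes the O-fucosyltransferase that modifies Notch and starts 92 bp from the summit.

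**Figure D2:**
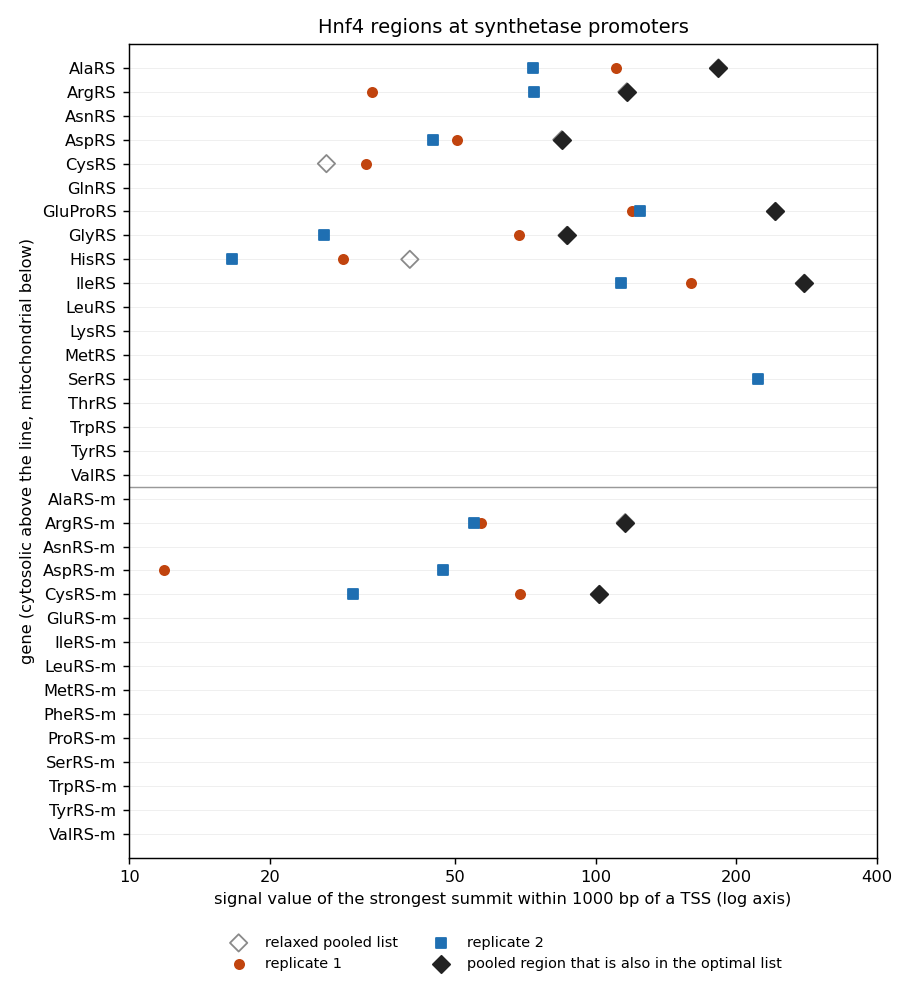
Signal value of the strongest summit within 1000 bp of a TSS (x axis, log scale) for each of the 33 genes (y axis, 18 cytosolic above the line and 15 mitochondrial below), in the pooled list (diamonds, filled where the region is also in the optimal list), replicate 1 (circles) and replicate 2 (squares). The 8 filled diamonds run from 84.5 to 279.5, the replicate values of these genes lie below them, and 21 genes have no mark. Signal values of different lists are each on their own scale.

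Of the 8 genes, 6 had peaks supported by both replicates, and the exceptions were ArgRS and GlyRS. The replicates agreed best in rank at AlaRS and IleRS and least at ArgRS. Signal values in the relaxed lists are on scales of their own, with a median over all regions of 20.88 in replicate 1 and 14.05 in replicate 2. Within each replicate all 8 genes were above that median, the lowest being ArgRS at 33.1 in replicate 1 and GlyRS at 26.11 in replicate 2. The 8 genes were chosen by strong regions of the same 2 replicates pooled, so values above these medians follow largely from that choice.

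A further 4 genes had a promoter summit in some list and none in the optimal one. HisRS (FBgn0027087), for the histidyl enzyme, had a signal value of 28.71 in replicate 1, 16.64 in replicate 2 and 39.93 in the pooled list, where its rank was 10627. Those summits lay 75 bp, 351 bp and 327 bp upstream, so the values of the replicates are from different places. CysRS (FBgn0027091), the cysteinyl gene of the cytosol, had 32.17 in replicate 1 and 26.46 in the pooled list at rank 16971, and no summit in replicate 2. An optimal peak of signal value 80.72 lay 1050 bp upstream of CysRS, just outside the 1000 bp limit and within 1000 bp of the TSS of its neighbour CG30094. AspRS-m (FBgn0051739) had 47.04 in replicate 2, with the summit 32 bp upstream, and 11.9 in replicate 1, with the summit 830 bp upstream, so these are different places. The pooled values of HisRS and CysRS lie below 66.61, the lowest signal value of the optimal list, which is the top of the pooled list.

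SerRS (FBgn0031497), the seryl-tRNA synthetase gene, carried the strongest promoter region of all 33 genes in replicate 2 and none in the other lists. In replicate 2 the region at chromosome 2L from 3037241 to 3037568 had a signal value of 222.8, rank 174 of 30000, and its summit lay 22 bp upstream of the SerRS TSS. The region also counts for the opposite gene CG17260. In replicate 1 and in the pooled list, no summit lay within 1000 bp of a SerRS TSS. A peak with its summit 2526 bp upstream of SerRS, at the promoters of cnir and CG17221, was in every list, with signal values of 169.0 in replicate 1, 139.9 in replicate 2 and 308.2 in the optimal list. Between them, a weaker region 1497 bp upstream, also at cnir, was in replicate 1 at 17.03 and in the pooled list at 27.58, and not in replicate 2. A further weak region, near CG17261, lay 4841 bp upstream in replicate 1, at 16.55, and 4890 bp upstream in replicate 2, at 23.85. It was in the pooled list at 43.67 and not in the optimal list. The replicates thus shared this region and the peak at 2526 bp, and differed at the SerRS TSS and at 1497 bp.

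A strong region of 1 replicate without a counterpart in the other, as at the SerRS TSS, was uncommon. Among the 300 strongest regions of replicate 2, 8 overlapped no region of replicate 1, or 2.67%, and 7 overlapped none of replicate 1 or of the pooled list. Among the 300 strongest of replicate 1, 17 overlapped no region of replicate 2, or 5.67%, and 2 overlapped none of replicate 2 or of the pooled list. Read counts at SerRS are not in these lists, and what sets the replicates apart there was not tested.

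**Figure D3:**
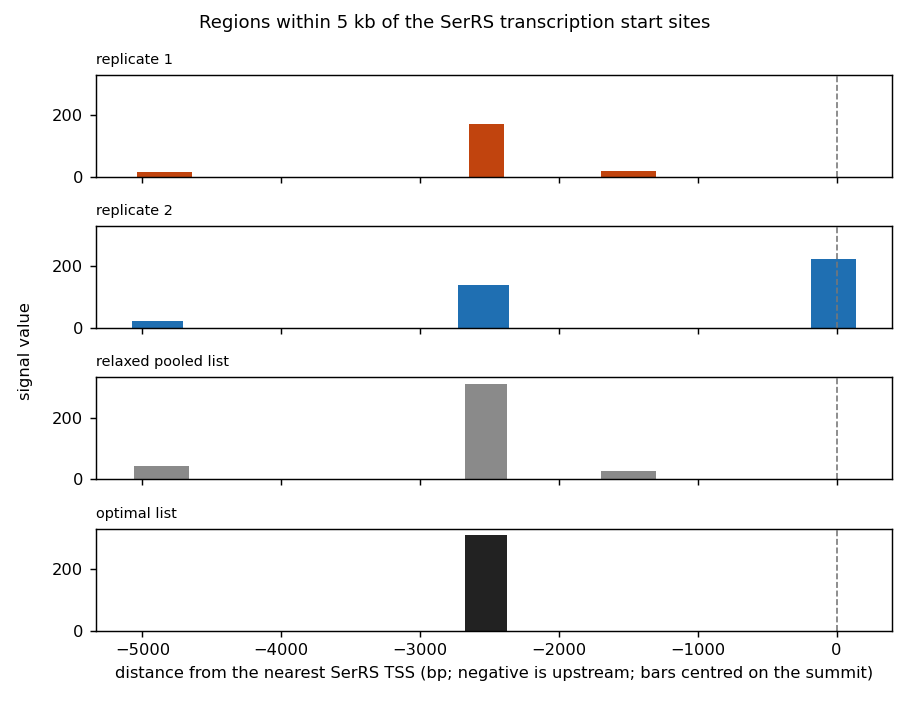
Called regions within 5 kb of the SerRS TSSs, as bars centred on the summit and as wide as the region (x axis, bp from the nearest SerRS TSS, upstream negative) with their signal value as height (y axis), in replicate 1, replicate 2, the pooled list and the optimal list. The region at the TSS, 222.8, is in replicate 2 alone, while the region 2526 bp upstream in the optimal list has a counterpart in each of the other lists.

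No list had a promoter summit at the remaining 21 genes. They are the 9 cytosolic genes AsnRS, GlnRS, LeuRS, LysRS, MetRS, ThrRS, TrpRS, TyrRS and ValRS, and the 12 mitochondrial genes other than ArgRS-m, AspRS-m and CysRS-m. So 12 of 33, or 36.4%, had a summit in any list, made up of 9 of 18 cytosolic and 3 of 15 mitochondrial genes, against 53.6% of all protein-coding genes.

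Genes without an optimal promoter summit differed in how far the nearest one lay. For the 12 cytosolic genes the distance from a TSS to the nearest optimal summit had a median of 6700 bp, from 1050 bp at CysRS to 19994 bp at LeuRS. For the 13 mitochondrial genes the median was 12620 bp, from 3667 bp at PheRS-m to 127610 bp at LeuRS-m. The median was 13640 bp over all genes without an optimal promoter summit. Beyond 10 kb stood 2 of the 12 cytosolic genes, LysRS and LeuRS, and 9 of the 13 mitochondrial genes, or 69.2%, compared with 60.1% of such genes in all. Some of the nearest peaks were strong: that of GlnRS, 6897 bp away, had a signal value of 699.3 and rank 84, and that of AlaRS-m, 6596 bp away, had 1427 and rank 11. TyrRS and GluRS-m, which follow each other on chromosome 3L, had the same nearest peak, of signal value 91.18.

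Peaks were also set side by side for enzymes of the same amino acid in the 2 compartments. Of the 20 standard amino acids, 14 had both a cytosolic and a mitochondrial gene by the naming rule. Arginine had an optimal promoter peak at both genes. These are counts by gene, and whether the peaks of a pair go together was not tested. For 5 amino acids, alanine, aspartate, isoleucine, glutamate and proline, the peak was at the cytosolic gene alone, the last pair through the single gene GluProRS. Cysteine was the one amino acid with a peak at the mitochondrial gene alone, and for 7 there was none at either. Glutamine, glycine, histidine, lysine and threonine had a cytosolic gene only, of which GlyRS had a peak, and phenylalanine a mitochondrial gene only, without one. In human cells the glycyl and lysyl enzymes of both compartments come from single genes. Whether any of the fly genes without a -m counterpart serves both compartments was not tested.

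The summits sat close to the TSS and mostly ahead of it. The median distance over the 8 genes was 102.5 bp, against 161 bp over all genes with an optimal promoter summit. The largest of the 8 was 150 bp, and 48.1% of all genes with such a summit had it within 150 bp. That limit is the members' own largest distance, so their share within it was fixed beforehand. The summit was upstream of the gene's nearest TSS at 7 of 8 genes, or 87.5%, against 77.0%. AspRS is among these, although its summit lies in an exon of a longer AspRS transcript. A gene of the opposite direction started within 1000 bp, ahead of the gene, at 7 of the 8, against 53.4% of all genes with an optimal promoter summit. At 6 of 8 genes the summit lay between the TSS of the synthetase and that of a gene read in the opposite direction. This was so at 36.6% of all genes with an optimal promoter summit, many of which had no such neighbour. In each of these 6 the synthetase TSS was the nearer one, while over the 1173 genes with a summit so placed the own TSS was nearer in 49.7%. Both genes of a pair can count there, so a share near that value is set by the counting. These are counts over 8 genes and were not tested.

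**Figure D4:**
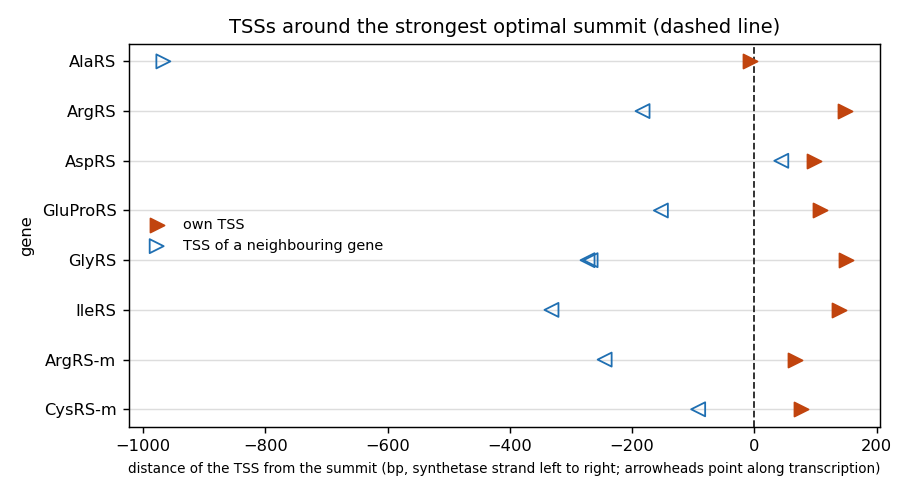
Distance of TSSs from the strongest optimal promoter summit of each of the 8 synthetase genes (x axis, bp, in the direction of the synthetase, with the summit at 0), filled arrowheads for the synthetase and open ones for neighbouring genes, each pointing along transcription. The synthetase TSS lies within 150 bp of the summit in every row, and at AspRS the Nmda1 TSS lies between them.

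Many synthetase genes share a promoter region with a neighbour. A gene of the opposite direction started within 1000 bp, ahead of the synthetase, at 16 of 18 cytosolic genes, or 88.9%, and at 7 of 15 mitochondrial genes, or 46.7%, against 36.2% of all genes. Among all genes, 33.9% of those with such a divergent partner and 16.7% of those without had an optimal promoter summit. With a partner, 5 of 16 cytosolic genes (31.2%) and 2 of 7 mitochondrial genes (28.6%) had one, both a little below that background. Without a partner, it was 1 of 2 cytosolic genes, AlaRS, and 0 of 8 mitochondrial genes. The share of divergent promoters thus moves with the difference between the compartments, and its part in it was not tested.

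Sequence motifs were searched on both strands as exact matches. The Hnf4 motif CAAAGTCCA was within 100 bp of none of the 8 summits, and near 30 of 3130 optimal promoter summits, or 0.958%. The DRE, TATCGATA, was near 2 of the 8, at AlaRS and AspRS, and near 7.09% of all. GGTCACAC, an M1BP motif, was near none of the 8, and near 3.55% of all. The E-box CACGTG, the GAGA repeat GAGAGAG, the ATF4 motif TGATGCAA and the ERR motif TCAAGGTCA were near none of the 8, and near 2.49%, 7.35%, 0.639% and 0.0319% of all promoter summits. No match says only that these letters are not in these windows.

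In the promoters themselves, from 250 bases before a TSS to 50 after, the DRE was the motif found most. It stood in 6 of 33 synthetase promoters, or 5 cytosolic and 1 mitochondrial, against 10.2% of all genes. AlaRS, ArgRS, AspRS and IleRS had both the DRE and an optimal peak, and TrpRS and PheRS-m had the DRE and no peak. Of the 1420 genes with a promoter DRE, 36.9% had an optimal summit. The sites of 4 genes are shown with 11 bases on either side, 5′ to 3′ on the strand of the gene in dm6, and capitals mark the DRE.
AlaRS (chr2L:8381765-8381794, minus strand): atctctaaatcTATCGATAtctcatccagt
ArgRS (chrX:15844161-15844190, minus strand): gctgttatcgtTATCGATAggcgacgtgtg
IleRS (chr3L:22288612-22288641, plus strand): tcggaacctacTATCGATAtcgcgaaccca
TrpRS (chr3R:9266958-9266987, minus strand): atatttctcatTATCGATAtttttaacagt
The AlaRS site starts 19 bp upstream of the TSS, that of ArgRS 34 bp, that of IleRS 42 bp and that of TrpRS 72 bp. From the summit, the first base of the site was 27 bp away at AlaRS, 114 bp at ArgRS and 96 bp at IleRS, where the site runs past the window shown above.

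The other motifs were rarer in synthetase promoters. GGTCACAC was in 4, GlnRS, AsnRS-m, AspRS-m and ProRS-m, none of which had an optimal peak, and in 8.69% of all genes, of which 31.9% had one. CACGTG was in 3 (GlnRS, ThrRS and LeuRS-m) and in 5.32% of all genes. GAGAGAG was in ArgRS-m alone, beside 9.07% of genes, and TGATGCAA in ThrRS alone, beside 1.09%. CAAAGTCCA and TCAAGGTCA were in no synthetase promoter, and in 0.408% and 0.215% of all genes.

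Genes around the synthetases were read in the same lists, and 8 of 27 had an optimal promoter summit, or 29.6%, against 22.9% of all genes. Of those 8, 5 belong to the group of Gcn2, eIF2 subunits and ATF4, which is described last. Partners and subunits outside the naming rule had 1 of 6. This was Slimp, a mitochondrial protein related to seryl-tRNA synthetase and bound to SerRS-m, with a signal value of 96.82 in the optimal list, 40.65 in replicate 1 and 52.86 in replicate 2. The scaffold genes AIMP1, AIMP2 and AIMP3, which hold synthetases in a complex, and the phenylalanyl subunits alpha-PheRS and beta-PheRS had none in any list. The mitochondrial amidotransferase genes GatA, GatB and GatC, which convert glutamate to glutamine on its transfer RNA, and CG1750, for methionyl-tRNA formylation, had 0 of 4, with a replicate 1 summit of 36.79 at CG1750 alone.

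Elongation factors that take over the loaded transfer RNA had 2 of 8, or 25.0%, close to the 22.9% of all genes. eEF1alpha1, which delivers it to the ribosome, had a signal value of 176.6 in the optimal list, 104.1 in replicate 1 and 92.42 in replicate 2. eEF1beta, its exchange factor, had 83.62, 47.42 and 36.87 in the same lists. Neither of them reached the value of IleRS or GluProRS in any of the lists. eEF1delta had summits in the relaxed lists only and mEFTs in replicate 2 only.

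The list of Gcn2, PEK, eIF2 subunits, ATF4 and genes known to lie downstream of them had 5 of 9, or 55.6%. Over all genes the share was 22.9%, and the difference was not tested. These 9 genes were chosen with earlier results of these data known, so their share cannot show enrichment. Gcn2, the one sensor of uncharged transfer RNA among them, had no summit in any list. Thor, the translational repressor 4E-BP, had a signal value of 288.6 in the optimal list, 179.1 in replicate 1 and 114.2 in replicate 2, all slightly above IleRS. AsnS, for asparagine synthetase, had 221.5, 139.7 and 87.9, with the summit 454 bp from its TSS. PPP1R15, which directs a phosphatase to eIF2alpha, had 119.4, 69.34 and 50.42, and crc, the ATF4 gene, had 94.39, 62.37 and 40.08. At crc the replicate 2 summit lay 342 bp from a TSS and the optimal summit 15 bp. The optimal peaks of Thor, AsnS, PPP1R15 and crc were supported by both replicates, and that of eIF2beta, at 80.06, was not. PEK, a kinase of eIF2alpha that responds to stress of the endoplasmic reticulum, and eIF2gamma, a subunit of eIF2, had no summit in any list, and eIF2alpha had summits in the relaxed lists only.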

How the data were processed

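The authors deposited narrowPeak lists of Hnf4 ChIP-seq from 2 biological replicates, per the labels. The 4 dm6 lists were used: optimal, relaxed pooled, and relaxed for each replicate. Per the deposited file descriptions, the lists of the replicates and of the pool were thresholded on the irreproducible discovery rate to give the optimal list, and 1 control served both replicates. The signal value of each region is the authors' own. Not given in the sources used here are its scale, the aligner and the peak caller. The lists hold no read counts. Depth is therefore unknown, and no interval was computed.

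Summits were start plus offset, counted from 1. TSSs were the 19643 of protein-coding transcripts in Ensembl release 115, and a gene's value is its strongest summit within 1000 bp. The optimal list held the 5817 strongest pooled regions. Support by both replicates meant an overlap of at least 1 bp with one of the 5817 strongest regions of each. Every gene of the rule was named or counted, with full values for those with an optimal promoter summit. The genes, the related lists and the motifs were chosen with earlier results of these data known. With 1 group and no contrast, no test was run. The summit assignment was checked on simulated summits. Alternatives were other TSS windows, stricter or relaxed lists, each replicate alone, other gene assignments, and whole regions in place of summits. The dm3 lists were not used here. Python 3.11.15, numpy 2.4.6, pandas 2.3.3 and matplotlib 3.10.9 were used.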

Additional observations from a re-analysis of the deposited data

How the results depend on the processing

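No paired analysis was possible because the samples form 1 group with no contrast. With the strongest 50% of the optimal peaks, the 8 synthetase genes with an optimal promoter summit and the 6 cytosolic ones came to 5 and 4. Those are 15.2% and 22.2%, against 14.8% of all genes. Where each replicate had to cover 50% of the peak, ArgRS, GluProRS and GlyRS left. The counts were then 5 and 3, or 15.2% and 16.7%, against 16.4% of all genes. The 2 mitochondrial genes came to 1 with the strongest 50%, or 6.67%, against 14.8% of all genes. With 50% coverage they stayed 2, or 13.3%, against 16.4%. Under the other alternatives the counts were 6 to 10, 4 to 8 and 2 to 3, while the share of all genes ran from 17.9% to 41.5%. The highest count, 10, was that of the pooled list, or 30.3%, against 41.5% of all genes. Without replicate 1 the counts were 9, 6 and 3, since SerRS and AspRS-m entered and GlyRS left. Those are 27.3%, 33.3% and 20.0%, against 24.2% of all genes. Without replicate 2 the counts were 7, 5 and 2, since ArgRS left, or 21.2%, 27.8% and 13.3%, against 24.5% of all genes. At 2000 bp CysRS entered through the peak of its neighbour. AspRS dropped out in assignment to the nearest TSS and with the most upstream TSS alone.

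The cytosolic median signal value of 149.8 became 134.8 at 2000 bp, 212.8 with the strongest 50% and with support by both replicates, and 101.6 in the pooled list. It became 183.1 with 50% coverage, with assignment to the nearest TSS and with the most upstream TSS alone, and 116.5 for any part of a region. Single replicates, on their own scales, gave 93.59 to 110.5. The mitochondrial median of 108.7 became 115.6 with the strongest 50%, and single replicates gave 47.04 to 62.75. Under the 9 alternatives other than single replicates, the strongest peak of the 8 genes kept its value in 59 cases and was lost in 10. These alternatives choose again among the same regions, so an unchanged value does not measure stability. A stronger region took its place in 3, AlaRS to 340.3 at 2000 bp and for any part of a region, and AspRS to 134.8 at 2000 bp. With 2 replicates, without depth and with 6 and 2 genes behind the medians, small differences between the compartments cannot be resolved.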
